A study of Mus musculus with 8 samples.

Results

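The S100 and annexin genes were taken as every gene of the expression table whose symbol begins with S100a or Anxa followed by a number, which gave 26 of 36333 listed genes, 14 of the S100 family and 12 of the annexin family. Their RNA levels were compared between ventral prostate lobes of 4 wild-type mice (WT) and 4 hSKP2-KI mice, all male and 12 months old. In hSKP2-KI mice the coding sequence of human SKP2, preceded by a P2A self-cleaving peptide, sits in exon 1 of the endogenous probasin gene, so that the mouse probasin promoter, which is active in prostate epithelium, drives it. WT mice carry no insert, and the labels name no treatment for either group. The study bred knock-in males by crossing heterozygous females with wild-type FVB/N males. Its methods give neither the strain of those females nor whether the WT mice were littermates. Several knock-in lines were made, and which line was sequenced is not given in the sources used here.

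S100 proteins are small calcium-binding proteins with EF-hand motifs that usually work as dimers, and annexins are proteins that bind phospholipid membranes when calcium is present. The families meet physically, because several S100 dimers hold the N-terminal tail of a particular annexin and so bring membranes together. In glandular epithelium they are known for roles in vesicle traffic, repair of the plasma membrane, the cytoskeleton and the activation of plasminogen at the cell surface, and some S100 proteins are also abundant in macrophages, neutrophils and fibroblasts.

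Values are given as TPM, the relative number of transcripts, in which reads on a gene are divided by transcript length and every sample sums to 1000000. Levels may thus be compared between genes of a mouse, while between mice they are relative to that fixed total. The study's methods give a nominal sequencing depth, but the table holds no read counts, so how many reads were assigned to a gene in a mouse is not known here. Differences between genotypes are hSKP2-KI minus WT on the scale of log2(TPM + 1), fitted with limma over the 13080 genes that reached a TPM of 1 in at least 4 of the 8 samples, with p-values adjusted by the Benjamini-Hochberg method over all of them and a threshold of 0.05. The median difference of all tested genes was 0.23 in the deposited values, and the cause of this shift was not tested. The median difference was -0.02 after each sample was rescaled by the median ratio of its genes to their mean over samples. A gene is therefore said to have risen or fallen only if it passed the threshold in the same direction in both forms of the data. As a check of the labels, the mouse gene Skp2 (Entrez 27401) read 37.3 to 60.6 TPM in hSKP2-KI and 1.05 to 2.27 TPM in WT. Reads were mapped to the mouse genome, so reads of the human insert and of mouse Skp2 cannot be told apart in this value. Pbsn, the probasin gene that received the insert, read 93.0 to 174 TPM in hSKP2-KI against 3980 to 9232 TPM in WT. The 5 listed secretory genes of the ventral lobe made up 321698 to 344052 TPM in hSKP2-KI and 413813 to 463048 TPM in WT, so the tissue expressed its defining products in every mouse.

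Of the 26 genes, 18 passed the filter on low values, 8 S100 and 10 annexin genes. In the deposited TPM 15 of the 18 were higher in hSKP2-KI, beside 32.7% of all tested genes, and 1 was lower, beside 1.23% of all tested genes. In both forms of the data 8 rose, beside 6.64% of all tested genes. These were S100a1, S100a4, S100a6, S100a10, S100a13, Anxa1, Anxa3 and Anxa8. The hSKP2-KI mice, in which Anxa8 was high, would have carried it through the filter alone, so its place in these counts is a description. Anxa13 was the 1 gene that fell in both forms, beside 1.21% of all tested genes. After scaling, every hSKP2-KI value lay above every WT value for 6 of the 18, where 9.68% of all tested genes did so, and below every WT value for 2, where 9.93% did so. The median difference of the 8 S100 genes was 0.87 in deposited TPM and 0.61 after scaling, and that of the 10 annexin genes was 0.38 and 0.09. When 1 mouse at a time was omitted, the number of genes that rose in both forms lay between 4, without hSKP2-KI 2, and 7, without WT 1. It was 6 without hSKP2-KI 3 and 5 without each of the others.

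**Figure D1:**
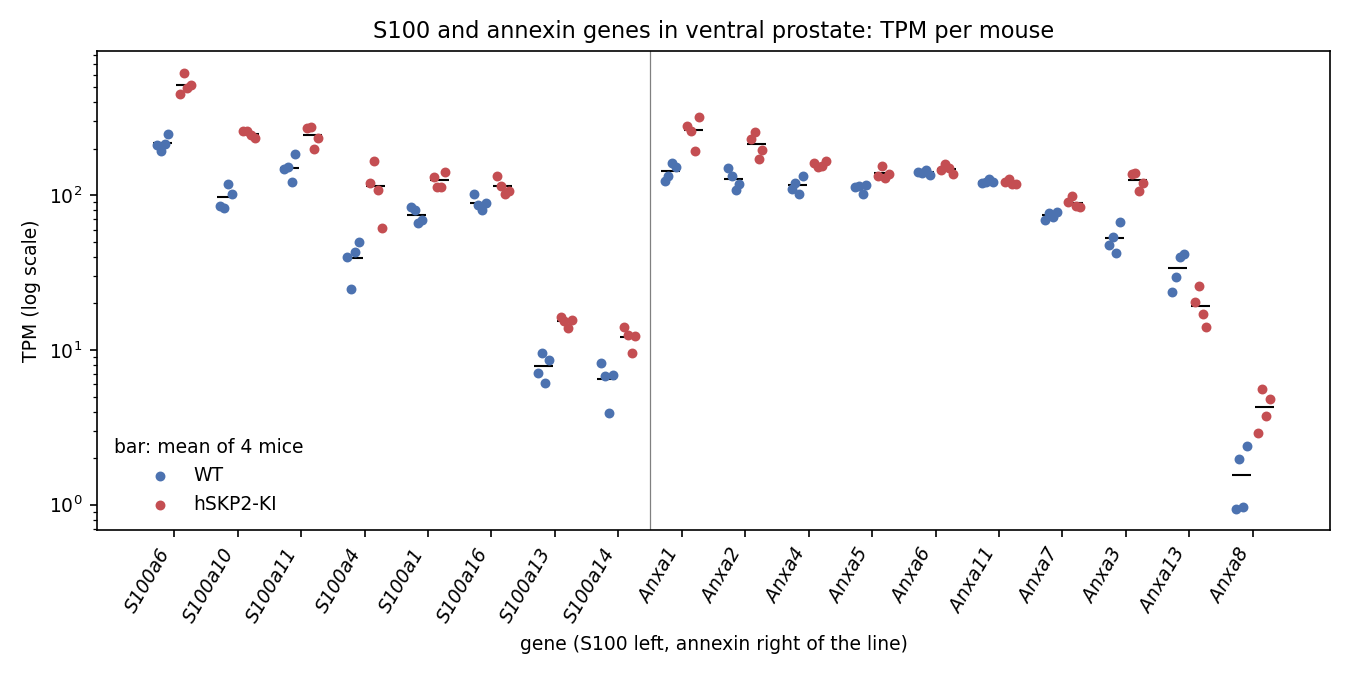
TPM on a log scale (vertical axis) of the 18 genes that passed the filter, S100 genes left and annexin genes right of the line, with 1 point for each of 4 WT (blue) and 4 hSKP2-KI mice (red) and a bar at the mean. S100a6 was the highest gene in all 8 mice, the hSKP2-KI points of S100a6, S100a10 and Anxa3 stand well above the WT points, and those of Anxa6 and Anxa11 are intermixed with them.

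The S100 genes whose proteins bind annexins are described first. All 4 of them were higher in deposited TPM, beside 32.7% of all tested genes. S100a4, S100a6 and S100a10 rose in both forms of the data, beside 6.64% of all tested genes. The median difference over the 4 was 1.31 in deposited TPM and 1.03 after scaling. S100a6 (Entrez 20200) encodes calcyclin, which is known from proliferating cells and binds annexin A11. It read 211, 192, 213 and 248 TPM in WT mice 1 to 4, and 450.3, 620.3, 491 and 512 TPM in hSKP2-KI mice 1 to 4. The lowest hSKP2-KI mouse thus lay well above the highest WT mouse. The difference was 1.26 (standard error 0.11, adjusted p = 0.000116, limma) in deposited TPM and 0.97 (standard error 0.12, adjusted p = 0.00235, limma) after scaling.

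S100a10 (Entrez 20194) encodes p11, an S100 protein that has lost calcium binding and forms a tetramer with annexin A2 beneath the plasma membrane. Its level was 85.1, 82.4, 118 and 102 TPM in the WT mice and 259, 259.9, 243 and 236 TPM in the hSKP2-KI mice. The hSKP2-KI values were close together, 249 ± 11.8 (SD, n = 4) against 96.9 ± 16.6 (SD, n = 4), with no overlap. The rise was 1.37 (standard error 0.11, adjusted p = 7.6e-05, limma) in deposited TPM and 1.09 (standard error 0.12, adjusted p = 0.00162, limma) after scaling.

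S100a4 (Entrez 20198), also called metastasin, encodes a partner of non-muscle myosin that is abundant in fibroblasts and macrophages. The WT mice read 39.9, 24.8, 42.9 and 49.8 TPM and the hSKP2-KI mice 119.6, 167, 108 and 61.5 TPM. The groups did not overlap, but hSKP2-KI 4 lay nearer to the WT mice than to the other hSKP2-KI mice. The difference of 1.47 (standard error 0.28, adjusted p = 0.0045, limma) in deposited TPM was the largest of the 18 genes, and it was 1.19 (standard error 0.31, adjusted p = 0.0362, limma) after scaling. The call after scaling depended on the set of mice. It held without hSKP2-KI 4 but was lost with any of the other 7 mice left out, with differences from 0.95 to 1.47 and adjusted p of up to 0.0814 (limma).

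S100a11 (Entrez 20195), calgizzarin, encodes the partner of annexin A1 and is known for a part in keratinocyte growth arrest and membrane repair. It read 147, 153, 121 and 183 TPM in WT and 271, 275, 200.1 and 234 TPM in hSKP2-KI. The groups were separate in deposited TPM and overlapped after scaling. Its difference was 0.70 (standard error 0.13, adjusted p = 0.0048, limma) in deposited TPM and 0.41 (standard error 0.14, adjusted p = 0.0791, limma) after scaling.

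Because these 4 genes all lie on mouse chromosome 3 and 3 of them rose together, the sequence just before their starts was read from RefSeq (build GRCm38.p6) for those with an entry, namely S100a4 at chr3:90603520-90603769, S100a6 at chr3:90612644-90612893 and S100a11 at chr3:93520246-93520495, all on the plus strand. Each sequence is the 250 bases before the annotated start, 5′ to 3′, and S100a10 is named only. Capitals mark matches on either strand to 4 short motifs. The TATA box was searched as the letters TATAAA. For the AP-1 site, the target of Jun and Fos proteins, the letters were TGANTCA. The GC box, which Sp1 and related factors bind, was spelled GGGCGG. The last motif was the CCAAT box, the target of factor NF-Y, under the letters of its name.
S100a4: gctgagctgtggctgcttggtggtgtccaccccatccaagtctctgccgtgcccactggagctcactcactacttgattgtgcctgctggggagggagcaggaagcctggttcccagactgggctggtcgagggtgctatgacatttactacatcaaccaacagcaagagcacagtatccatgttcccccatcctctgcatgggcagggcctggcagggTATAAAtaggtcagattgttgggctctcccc
S100a6: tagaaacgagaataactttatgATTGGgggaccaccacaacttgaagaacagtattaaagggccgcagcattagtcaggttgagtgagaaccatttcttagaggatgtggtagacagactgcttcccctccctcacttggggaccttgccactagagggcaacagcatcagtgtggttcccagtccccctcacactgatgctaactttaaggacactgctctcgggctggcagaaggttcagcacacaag
S100a11: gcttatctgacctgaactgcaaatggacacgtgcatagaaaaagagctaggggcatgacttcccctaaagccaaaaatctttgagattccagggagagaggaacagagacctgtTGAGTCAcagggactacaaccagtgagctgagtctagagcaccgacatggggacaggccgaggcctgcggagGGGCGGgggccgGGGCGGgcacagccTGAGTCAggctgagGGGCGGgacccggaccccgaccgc

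The promoters held different letters. S100a4 had a TATA box 31 bases before its start, a match found in 12.4% of 32851 RefSeq windows of the same length. S100a6 had a CCAAT box on the reverse strand 228 bases before its start, where 33.8% of windows hold it, and no match to the other motifs. S100a11 had an AP-1 site at 136 and at 38 bases, where 6.75% of windows hold it, and a GC box at 64, 52 and 24 bases, where 32.7% do. No match overlapped another. A match describes letters and not a bound site, and the 2 genes that rose, S100a4 and S100a6, had none of these motifs in common.

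The other broadly expressed S100 genes were also higher in deposited TPM, all 4 of them, and S100a1 and S100a13 rose in both forms of the data. Their median difference was 0.79 in deposited TPM and 0.52 after scaling. Of all tested genes 32.7% were higher in deposited TPM and 6.64% in both forms. S100a13 (Entrez 20196) encodes a protein that helps export FGF1 and other proteins without a signal peptide. It read 7.11, 9.55, 6.07 and 8.61 TPM in WT and 16.3, 15.4, 13.9 and 15.6 TPM in hSKP2-KI, with no overlap before or after scaling. Its rise was 0.90 (standard error 0.13, adjusted p = 0.00151, limma) in deposited TPM and 0.64 (standard error 0.11, adjusted p = 0.00817, limma) after scaling.

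S100a1 (Entrez 20193), best known as a regulator of calcium release in heart muscle, read 84.1, 79.9, 66.0 and 69.3 TPM in WT and 131, 113, 114 and 142 TPM in hSKP2-KI. The groups were separate in deposited TPM and overlapped after scaling. The difference was 0.73 (standard error 0.10, adjusted p = 0.00151, limma) in deposited TPM and 0.45 (standard error 0.12, adjusted p = 0.0401, limma) after scaling. The scaled call held without WT 1 and was lost with any of the other 7 mice left out, with differences between 0.40 and 0.56 and adjusted p of up to 0.0995 (limma). S100a1 and S100a13 lie head to head on opposite strands and share 98 bases in RefSeq, and reads there cannot be assigned without strand information, which is not given in the sources used here.

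S100a14 and S100a16 were higher in deposited TPM alone. S100a14 (Entrez 66166), an epithelial S100 gene, read 8.23, 6.80, 3.92 and 6.84 TPM in WT and 14.1, 12.5, 9.51 and 12.3 TPM in hSKP2-KI. Its difference of 0.84 (standard error 0.19, adjusted p = 0.0085, limma) became 0.58 (standard error 0.20, adjusted p = 0.0851, limma) after scaling. S100a16 (Entrez 67860), among the most widely expressed of the family, read 101, 87.0, 79.8 and 89.0 TPM in WT and 134, 115, 102 and 106 TPM in hSKP2-KI. The lowest hSKP2-KI mouse and the highest WT mouse were nearly level. The difference of 0.35 (standard error 0.10, adjusted p = 0.0257, limma) was 0.06 (standard error 0.13, adjusted p = 0.788, limma) after scaling. Its call in deposited TPM was lost without hSKP2-KI 1, hSKP2-KI 2, WT 3 or WT 4, with differences between 0.27 and 0.35 and adjusted p of 0.0572, 0.0548, 0.0675 and 0.0505 in that order.

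The calprotectin genes S100a8 and S100a9, whose proteins make up much of the cytosol of neutrophils, were at the bottom of the range and were not tested. S100a8 read 0.861 TPM in WT 1 and was listed at 0 in the other WT mice, and it read 0.455, 3.48, 0.624 and 0.568 TPM in the hSKP2-KI mice. S100a9 did not exceed 0.174 TPM in WT and read 0.681, 1.30, 0.155 and 0 TPM in hSKP2-KI. For both genes the groups overlapped, and hSKP2-KI 2 had the highest value. The restricted genes S100a3, S100a5 and S100a7a, known from hair, olfactory neurons and skin, did not exceed 0.0855, 0.0995 and 0.255 TPM in any mouse, and S100a2 was listed at 0 in all 8. S100a3 and S100a2 share 1262 bases in RefSeq.

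The S100 genes without an A in their symbol were examined beside them. S100b, a marker of glia and some immune cells, read 0.559 to 0.931 TPM in WT and 1.18 to 2.36 TPM in hSKP2-KI, so it passed the filter through the hSKP2-KI mice alone and no test is given. S100g did not exceed 0.176 TPM and S100z was listed at 0 in all 8 mice. S100pbp, which encodes a binding protein of S100P and is not itself an S100 gene, read 15.7 ± 1.37 TPM (SD, n = 4) in hSKP2-KI and 14.2 ± 1.14 TPM (SD, n = 4) in WT, with differences of 0.14 (adjusted p = 0.248, limma) and -0.13 (adjusted p = 0.348, limma).

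The broadly expressed annexins ranged from a rise to nearly level values. Of the 7, 5 were higher in deposited TPM, where the median difference was 0.30, and Anxa1 alone rose in both forms of the data, with a median of 0.02 after scaling. Of all tested genes 32.7% were higher in deposited TPM and 6.64% in both forms. The median difference of all tested genes was 0.23 in deposited TPM and -0.02 after scaling. Anxa1 (Entrez 16952), lipocortin, encodes a mediator that dampens inflammation through formyl peptide receptors. It read 123, 133, 162 and 153 TPM in WT and 279.9, 259.5, 193 and 318 TPM in hSKP2-KI. The groups were separate in deposited TPM, with hSKP2-KI 3 nearest to WT, and overlapped after scaling. The rise was 0.86 (standard error 0.14, adjusted p = 0.00293, limma) in deposited TPM and 0.58 (standard error 0.15, adjusted p = 0.0333, limma) after scaling. The scaled call held without WT 3 or hSKP2-KI 3 and was lost without any of the other 6 mice, with differences from 0.49 to 0.71 and adjusted p of up to 0.0821 (limma).

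Anxa2 (Entrez 12306) encodes the partner of p11, which docks tissue plasminogen activator at the cell surface. It read 149, 133, 108 and 119 TPM in WT and 230.2, 257, 172 and 197 TPM in hSKP2-KI. The groups did not overlap in deposited TPM but did after scaling. Its difference was 0.74 (standard error 0.13, adjusted p = 0.00378, limma) in deposited TPM and 0.46 (standard error 0.15, adjusted p = 0.0848, limma) after scaling.

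Anxa4, Anxa5 and Anxa7 were higher in deposited TPM alone. Anxa4 (Entrez 11746), an annexin of secretory epithelia, read 102 to 133 TPM in WT and 151 to 165 TPM in hSKP2-KI, with a difference of 0.45 (adjusted p = 0.00486, limma) that was 0.17 (adjusted p = 0.204, limma) after scaling. Anxa5 (Entrez 11747), known for binding phosphatidylserine on dying cells, read 101 to 117 TPM and 129 to 154 TPM, with a difference of 0.30 (adjusted p = 0.0175, limma) and 0.02 (adjusted p = 0.911, limma) after scaling. Anxa7 (Entrez 11750), synexin, which promotes fusion of secretory granules, read 69.2 to 78.1 TPM and 83.8 to 99.3 TPM, with a difference of 0.27 (adjusted p = 0.0241, limma) and -0.01 (adjusted p = 0.932, limma) after scaling. For all 3 the genotypes were separate in deposited TPM and overlapped after scaling. The Anxa7 call in deposited TPM was lost without hSKP2-KI 2, WT 1 or WT 3, where the difference was 0.22, 0.24 and 0.26.

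Anxa6 and Anxa11 were nearly level between genotypes. Anxa6 (Entrez 11749), which links endosomes and cholesterol traffic, read 142, 138, 146 and 135 TPM in WT and 145, 160.1, 151 and 137 TPM in hSKP2-KI, and the groups were intermixed. Its difference was 0.08 (standard error 0.07, adjusted p = 0.387, limma) in deposited TPM and -0.21 (standard error 0.09, adjusted p = 0.162, limma) after scaling. Anxa11 (Entrez 11744), which tethers RNA granules to lysosomes and is a partner of S100A6, read 120.5, 121, 127 and 122 TPM in WT and 121, 128, 117 and 119 TPM in hSKP2-KI. All 8 values lay between 117 and 128 TPM. The difference was -0.02 (standard error 0.06, adjusted p = 0.855, limma) in deposited TPM and -0.30 (standard error 0.08, adjusted p = 0.0329, limma) after scaling, where every hSKP2-KI value was below every WT value.

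The annexins of more restricted expression held the largest rise and the fall of the family. Anxa3 (Entrez 11745, chromosome 5) encodes an annexin of neutrophil granules and of several epithelia. It read 47.8, 53.8, 42.6 and 67.2 TPM in WT and 137, 139.5, 106 and 120.2 TPM in hSKP2-KI. No hSKP2-KI mouse overlapped a WT mouse before or after scaling. The rise was 1.25 (standard error 0.14, adjusted p = 0.000502, limma) in deposited TPM and 0.96 (standard error 0.13, adjusted p = 0.00366, limma) after scaling.

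Anxa8 (Entrez 11752, chromosome 14), known from stratified epithelia, was the lowest of the tested genes. It read 0.942, 1.98, 0.959 and 2.38 TPM in WT and 2.89, 5.59, 3.72 and 4.81 TPM in hSKP2-KI, with no overlap. It lay near the filter, and the hSKP2-KI mice would have carried it through alone, so its test is given as a description. The rise was 1.05 (standard error 0.22, adjusted p = 0.00708, limma) in deposited TPM and 0.86 (standard error 0.20, adjusted p = 0.0275, limma) after scaling. The scaled call was lost without WT 1, WT 3, hSKP2-KI 2 or hSKP2-KI 4, with differences of 0.74 to 1.00 over all 8 omissions and adjusted p of up to 0.0708 (limma). In RefSeq the gene A630023A22Rik, listed at 0 in all 8 mice, covers the same bases.

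Anxa13 (Entrez 69787, chromosome 15), an annexin of intestinal and kidney epithelium, was the gene that fell. It read 23.6, 29.7, 40.2 and 41.7 TPM in WT and 20.5, 25.7, 17.04 and 14.1 TPM in hSKP2-KI. In deposited TPM hSKP2-KI 2 lay above WT 1, and after scaling every hSKP2-KI mouse was below every WT mouse. The difference was -0.77 (standard error 0.20, adjusted p = 0.0168, limma) in deposited TPM and -1.04 (standard error 0.20, adjusted p = 0.0133, limma) after scaling. Anxa9, whose protein lacks the usual calcium sites, reached 0.334 to 0.931 TPM in WT and 0.899 to 1.27 TPM in hSKP2-KI and was not tested, and it shares 410 bases with Cers2 and 74 with Fam63a in RefSeq. Anxa10, a gene of gastric epithelium, was listed at 0 in all 8 mice.

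**Figure D2:**
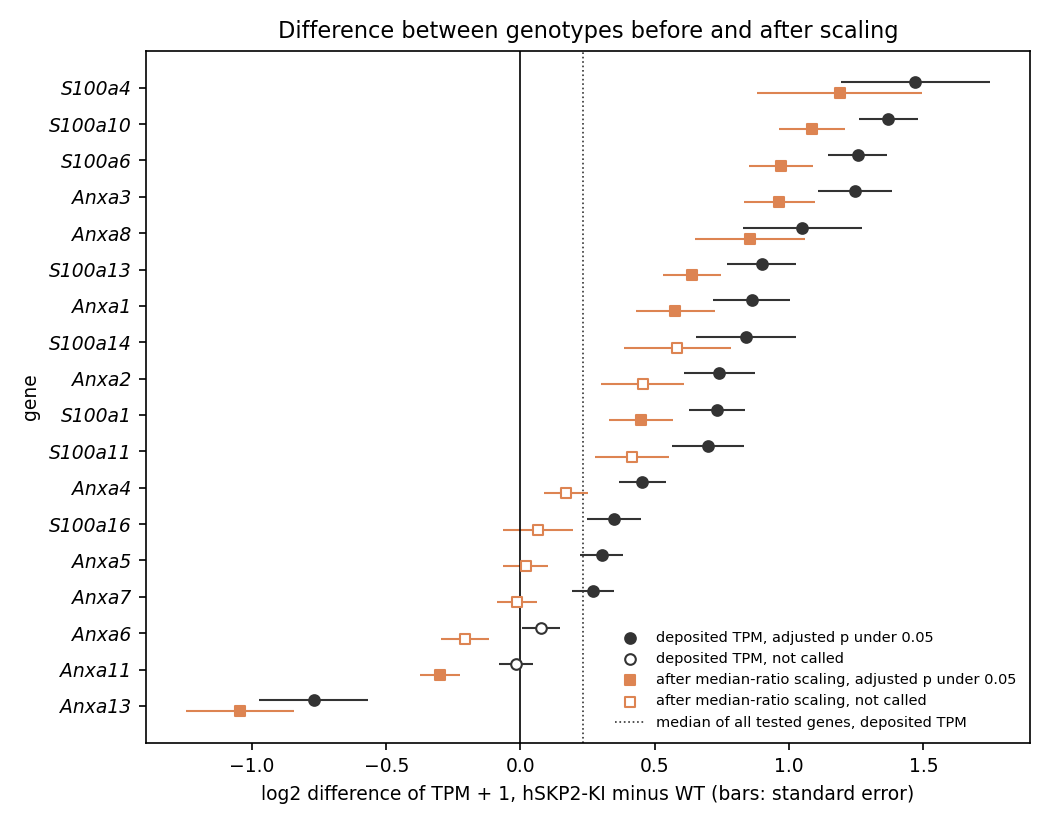
Difference on the log2(TPM + 1) scale, hSKP2-KI minus WT (horizontal axis), of the 18 tested genes in deposited TPM (black circles) and after median-ratio scaling (orange squares), with bars of 1 standard error and filled symbols for adjusted p under 0.05. The dotted line at 0.23 is the median of all tested genes in deposited TPM, and scaling moved Anxa5 and Anxa7 to 0.02 and -0.01 while S100a4, S100a10, S100a6 and Anxa3 stayed between 0.96 and 1.19.

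The calls of 5 genes held in both forms of the data whichever of the 8 mice was left out, namely S100a6, S100a10, S100a13, Anxa3 and Anxa13. All 9 genes called in both forms were also called after quantile normalization and after rescaling without the 20 most abundant genes.

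The makeup of each family is described beside its total. Summed over the family, S100 transcripts went from 682 ± 54.2 TPM (SD, n = 4) in WT to 1395 ± 134 TPM (SD, n = 4) in hSKP2-KI, and annexin transcripts went from 923 ± 31.8 to 1283 ± 108 TPM (SD, n = 4 each). In WT the annexin sum exceeded the S100 sum in every mouse, between 899.5 and 969 TPM against 635 to 757 TPM. In hSKP2-KI the sums were 1130.0 to 1380.3 TPM for annexin and 1282 to 1583 TPM for S100 genes. After median-ratio scaling the S100 sums stayed apart, at 1156 to 1415 in hSKP2-KI and 644 to 835 in WT, while the annexin sums overlapped, at 1025 to 1239 and 935 to 1098. The sums and the shares of single genes are descriptions, with no test.

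S100a6 made up 31.6% ± 1.31 of S100 transcripts in WT and 37.1% ± 3.27 in hSKP2-KI, with overlap. S100a16 went from 13.1% ± 1.38 to 8.20% ± 0.993 with no overlap. Among annexin transcripts Anxa3 went from 5.70% ± 0.945 to 9.78% ± 0.529, and Anxa13 from 3.65% ± 0.877 to 1.502% ± 0.318, without overlap in either (SD, n = 4 throughout). The shares of Anxa6, Anxa7 and Anxa11 were lower in every hSKP2-KI mouse than in any WT mouse, 11.6% against 15.2%, 7.003% against 8.02% and 9.49% against 13.3% on average. The family thus held more Anxa3 and less Anxa6, Anxa7, Anxa11 and Anxa13 per annexin transcript, and these shares do not depend on how samples were scaled.

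Since S100 and annexin proteins work in complexes, the ratios of S100a10 to Anxa2, S100a11 to Anxa1, S100a6 to Anxa11 and, for calprotectin, S100a8 to S100a9 were taken within each mouse, where the scaling of that mouse has almost no part. For these 4 ratios, p-values are from 2-sided exact permutation tests over the 70 assignments of mice, whose smallest p is 0.0286. S100a6 stood 0.81 ± 0.16 above Anxa11 on the log2 scale in WT and 2.08 ± 0.16 in hSKP2-KI (SD, n = 4 each). The TPM of S100a6 was 1.58 to 2.04 times that of Anxa11 in WT and 3.71 to 4.87 times in hSKP2-KI, and the groups were far apart. The difference of 1.27 had the smallest exact p possible, 0.0286, and 0.114 after adjustment over the 4 ratios.

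S100a10 lay 0.39 below Anxa2 in WT (log2 ratio -0.39 ± 0.43, SD, n = 4) and 0.24 ± 0.20 (SD, n = 4) above it in hSKP2-KI. WT 3, at 0.13, lay within the hSKP2-KI range of 0.02 to 0.50. The difference of 0.63 had an exact permutation p of 0.0571 and an adjusted p of 0.114. For S100a11 and Anxa1 the log2 ratio was 0.07 ± 0.33 in WT and -0.09 ± 0.24 in hSKP2-KI (SD, n = 4 each), with overlapping groups, a difference of -0.16 and an exact permutation p of 0.429. The ratio of S100a8 to S100a9 rested on values near 0 TPM, and its difference of 0.36 had an exact permutation p of 0.343, with 0.429 after adjustment. With 4 ratios and this smallest p, 1 fully separated ratio alone could not pass 0.05 after adjustment, whatever its size.

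**Figure D3:**
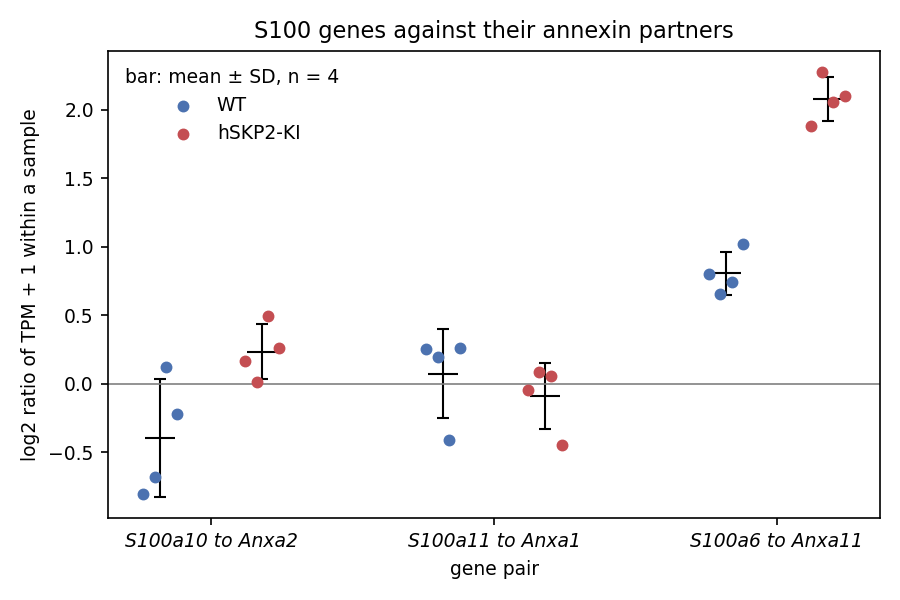
Log2 ratio of an S100 gene to its annexin partner within each mouse (vertical axis) for 3 gene pairs, with 1 point per mouse in WT (blue) and hSKP2-KI (red) and bars at the mean ± SD of 4 mice. The ratio of S100a6 to Anxa11 lies between 0.66 and 1.02 in WT and between 1.88 and 2.27 in hSKP2-KI, whereas the groups overlap for the other pairs.

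The partners and receptors of these proteins were examined as a list of 37 genes, of which 31 passed the filter. In deposited TPM 20 of the 31 were higher and 0 lower by limma, and 6 rose in both forms of the data, beside 32.7% and 6.64% of all tested genes that were higher in deposited TPM and in both forms. Their median difference was 0.42 in deposited TPM and 0.15 after scaling. None was lower in both, and Kcnk3, a potassium channel trafficked by p11, was lower after scaling alone, at 239 ± 14.5 against 314 ± 72.6 TPM (SD, n = 4 each) with differences of -0.37 (adjusted p = 0.0704, limma) and -0.65 (adjusted p = 0.0209, limma). Against the same 6.64%, of 5 tested genes of plasminogen activation 2 rose, of 12 tested binding partners 2, of 9 tested membrane repair genes 1 and of 5 tested receptors 1.

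Ahnak and Ahnak2, which encode giant scaffold proteins of the plasma membrane, the first of them held by the p11 and annexin A2 tetramer, were the binding partners that rose. Ahnak read 17.3, 27.9, 24.9 and 22.6 TPM in WT and 39.3, 54.6, 45.6 and 52.0 TPM in hSKP2-KI. The groups were well separated. Its difference was 1.02 (adjusted p = 0.00151, limma) in deposited TPM and 0.75 (adjusted p = 0.0056, limma) after scaling. Ahnak2 went from 2.11 ± 0.483 to 5.66 ± 2.73 TPM (SD, n = 4 each), with differences of 1.03 (adjusted p = 0.0106, limma) and 0.82 (adjusted p = 0.0485, limma). After scaling Ahnak2 lay at the edge of the threshold.

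On the plasminogen side, Plaur, the urokinase receptor, went from 2.70 ± 0.558 to 5.505 ± 1.05 TPM (SD, n = 4 each), with differences of 0.81 (adjusted p = 0.00431, limma) and 0.59 (adjusted p = 0.0218, limma). Plat, tissue plasminogen activator, went from 5.18 ± 0.666 to 9.59 ± 2.25 TPM (SD, n = 4 each), with differences of 0.76 (adjusted p = 0.00682, limma) and 0.51 (adjusted p = 0.0499, limma). Plat lay at the edge of the threshold after scaling, where its groups overlapped. Plg, plasminogen itself, which is made mainly in liver, did not exceed 0.0324 TPM.

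Myof, which encodes myoferlin, a membrane repair protein that acts beside annexins, went from 5.23 ± 1.01 to 12.4 ± 2.36 TPM (SD, n = 4 each), with differences of 1.10 (adjusted p = 0.00141, limma) and 0.85 (adjusted p = 0.00681, limma). Alcam, an adhesion molecule reported as a receptor of secreted S100 proteins, went from 13.2 ± 2.35 to 21.1 ± 2.01 TPM (SD, n = 4 each), with differences of 0.65 (adjusted p = 0.00593, limma) and 0.38 (adjusted p = 0.0489, limma). Alcam too lay at the edge of the threshold after scaling. For single partner genes, calls in both forms with a mouse left out are not given here. The receptors of annexin A1 were at the bottom of the range, with at most 0.308 TPM for Fpr1 and 0.977 TPM for Fpr2, and 0 in all 8 mice for Fpr3.

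In bulk tissue, more RNA of a gene per cell and more cells that express it cannot be told apart, so the markers of other cell types are given beside these genes. For each list the counts of genes higher in deposited TPM and in both forms follow in that order, to be read against 32.7% and 6.64% of all tested genes. The sums are in deposited TPM and were not rescaled, so the general shift of 0.23 in the median difference is part of them. Fibroblast markers (6 genes, all tested, 6 higher in deposited TPM and 2 in both forms) summed to 759 to 1333 TPM in hSKP2-KI and 419.9 to 605 TPM in WT. Macrophage markers (7 genes, all tested, 6 and 0) summed to 212 to 433 against 93.5 to 193 TPM. Smooth muscle markers (5 genes, all tested, 5 and 1) summed to 2747 to 4261 against 1884 to 2355 TPM. After scaling, every hSKP2-KI value exceeded every WT value for 4 fibroblast, 1 macrophage and 1 smooth muscle gene. Of all tested genes 9.68% did so.

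The mice with much S100a4 were in part those with high marker sums. hSKP2-KI 2 had the highest sums of fibroblast markers, 1333 TPM, and of macrophage markers, 433 TPM, and the highest S100a4, S100a6 and S100a8. Its sums of smooth muscle, basal and proximal luminal or urothelial markers, 4261, 424 and 1345 TPM, were the highest too. In the last of these lists Upk1a, at 983 TPM, held most of the sum. Upk1a and Krt4 were highest in hSKP2-KI 2. Psca, Ly6d, Krt7 and Upk3a were instead highest in hSKP2-KI 4, at 209, 35.7, 125 and 12.5 TPM. Endothelial markers were highest in hSKP2-KI 4 and general luminal markers in hSKP2-KI 1. hSKP2-KI 4, with the lowest S100a4 of its group, read 878 TPM for fibroblast and 215 TPM for macrophage markers. hSKP2-KI 1, with the lowest fibroblast sum of its group at 759 TPM, had more S100a4 than hSKP2-KI 3 and 4. The part of these markers in the differences of S100 and annexin genes was not tested.

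Proximal luminal or urothelial markers (6 genes, 5 tested, 5 higher in deposited TPM and 3 in both forms, Krt4, Ly6d and Psca) summed to 1032 to 1345 TPM in hSKP2-KI and 493 to 746 TPM in WT. Upk1a held most of these sums, at 651 to 983 TPM in hSKP2-KI and 390 to 648 TPM in WT. Its difference after scaling was 0.27 (adjusted p = 0.322, limma), with overlap. Upk3a, not tested, read 12.5 TPM in hSKP2-KI 4 and at most 0.312 TPM in any other mouse. Endothelial markers (4 genes, all tested, 3 and 1) summed to 26.1 to 47.3 against 15.4 to 22.8 TPM. General luminal markers (4 genes, all tested, 2 and 0) summed to 1625 to 1821 against 1369 to 1553 TPM, and basal markers (4 genes, all tested, 2 and 0) to 292 to 424 against 196 to 305 TPM, with overlap. After scaling, every hSKP2-KI value exceeded every WT value for 4 proximal, 1 endothelial and 0 general luminal or basal genes. Of all tested genes 9.68% did so. The part of these lists too was not tested.

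Markers of neutrophils, the main source of calprotectin, were near 0. Of 9 genes 1 passed the filter, Ltf, which the hSKP2-KI mice would have carried through alone. The list summed to 3.16 to 10.1 TPM in hSKP2-KI and 0.656 to 2.98 TPM in WT, Camp was listed at 0 in all 8 mice, and Ly6g at 0 in all but 1. Ltf held most of the hSKP2-KI sums, at 1.95 to 9.31 TPM against 0.252 to 2.29 TPM in WT, with overlap. No other gene of the list exceeded 1.17 TPM, reached by Retnlg in hSKP2-KI 1. Ptprc, the pan-leukocyte gene, read 3.72 to 7.76 against 1.59 to 5.29 TPM and was not called. Skeletal muscle markers (3 genes, 2 tested, 1 and 0) summed to 249 to 383 against 157 to 276 TPM, and adipocyte markers (3 genes, all tested, 0 and 0) to 36.1 to 187 against 23.2 to 141 TPM, both with overlap. Of the 5 ventral secretory genes 0 were higher and 2 were lower in deposited TPM, Pbsn and Spink1, and Pbsn was lower in both forms. Of all tested genes 1.23% were lower in deposited TPM and 1.21% in both forms. For Sbp, Sbpl, Spink1 and Pbsn every hSKP2-KI mouse lay below every WT mouse after scaling, where 9.93% of all tested genes did so. The same held in deposited TPM, for which the share of all genes was not counted.

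All S100 genes of the rule lie on chromosome 3, in 2 groups, so their genomic neighbours were examined. From S100a1 to S100a9 the 12 genes span chr3:90511034-90695721 (RefSeq, GRCm38.p6), 185 kb, and S100a11 and S100a10 span chr3:93520496-93564645, 44.2 kb. No other tested gene lay within either stretch. A search of 500 kb on either side of the first stretch found 18 other tested genes, all on the S100a1 side and none beyond S100a9, with a median difference of 0.29 in deposited TPM and 0.04 after scaling. Of these 9 were higher in deposited TPM and 1 in both forms, where 32.7% and 6.64% of all tested genes were, so the neighbours' share in both forms was near that of all genes. The 1 was Npr1, the receptor of atrial natriuretic peptide, which was chosen after its values were seen. Npr1 went from 3.50 ± 0.840 to 6.31 ± 1.09 TPM (SD, n = 4 each), with differences of 0.71 (adjusted p = 0.00892, limma) and 0.47 (adjusted p = 0.0437, limma). Of the 6 tested S100 genes of the stretch 4 rose in both forms. Beside the second stretch 1 other gene was tested, Tchh, a gene of the hair follicle, with differences of 0.11 and -0.06, and it was not called.

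**Figure D4:**
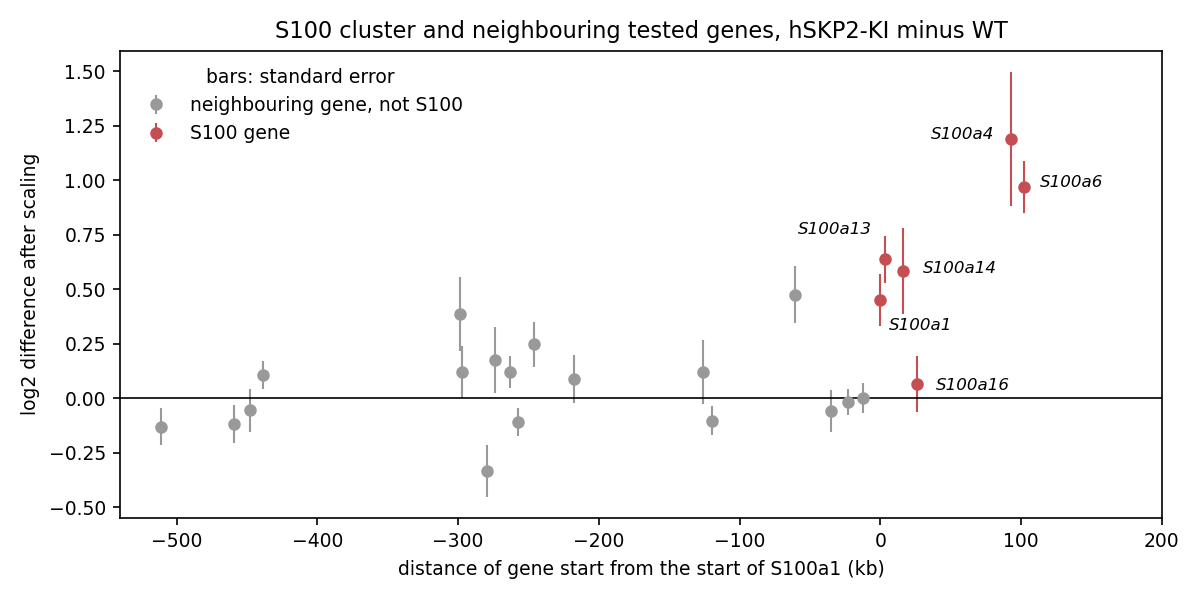
Difference after median-ratio scaling on the log2(TPM + 1) scale, hSKP2-KI minus WT (vertical axis), against the distance of the gene start from that of S100a1 in kb (horizontal axis), for 6 S100 genes (red) and 18 neighbouring tested genes (grey), with bars of 1 standard error. S100a4 and S100a6 lie at 1.19 and 0.97, S100a16 at 0.06, and the neighbours scatter around a median of 0.04.

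Within this stretch the difference varied from gene to gene. S100a4 and S100a6 lie side by side with S100a5, listed at 0 in 7 of 8 mice, between them, and S100a16, at 0.06 after scaling, lies between S100a14, at 0.58, and S100a3, which had almost no transcripts. The annexin genes are spread over chromosomes 3, 5, 6, 8, 9, 11, 14, 15 and 19. Of the 3 on chromosome 14, Anxa8 rose in both forms, Anxa7 was higher in deposited TPM alone and Anxa11 was lower after scaling alone.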

How the data were processed

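RNA of ventral prostate lobes from 4 hSKP2-KI and 4 WT mice, 1 library per mouse, was poly-A selected (RNA integrity numbers 8 to 10), sequenced as paired-end reads, and trimmed and mapped by the authors in CLC software. The submitters' processing notes name mm10 and GRCm38. The annotation, counting options and strand setting are not given in the sources used here. The authors deposited 1 table of TPM with 36333 genes for 8 samples, each summing to 1000000, with 0 columns of other samples. The methods give a nominal depth, but no read counts were used here, so neither a count model nor an interval was made. Samples were grouped by the genotype in their labels, which call them biological replicates.

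The test covered the 13080 genes that reached 1 TPM in 4 or more samples. Values were taken as log2(TPM + 1) and compared in R 4.3.3 by limma 3.58.1 (empirical Bayes with trend) over all 8 samples, without covariates. Benjamini-Hochberg adjustment ran over all tested genes, at a threshold of 0.05. The same fit was made after median-ratio scaling. The procedure was tested on simulated data. Ratios of gene pairs were compared by 2-sided exact permutation tests (scipy 1.17.1). Python 3.11.15 and matplotlib 3.10.9 made the figures. Gene positions and promoter sequences were taken from RefSeq tables of GRCm38.p6, in which 20 of the 26 genes have a promoter. Motifs were searched on both strands.

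Every gene that met the symbol rule is named, with S100 genes outside it, partner and receptor genes called in both fits, Kcnk3 and marker genes. A marker gene is not reported here and was left out of its list. Npr1 and 1810062G17Rik were named after their values were seen. The genes, lists and tests were chosen with earlier results of these data known. Alternatives were a pseudocount of 0.1, no filter, a minimum mean of 5 TPM, quantile normalization, scaling by the median ratio, removal of the 20 most abundant genes, a replicate block and omission of each mouse. Median-ratio scaling with factors from the tested genes alone, the family sums after scaling, and the block and omissions within both fits were added after the data were seen.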

Additional observations from a re-analysis of the deposited data

Results flagged for a closer look

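Among 56 sets of 4 mice, each holding the values of 1 reported gene or ratio in 1 genotype, 2 had a mouse far from the other 3 by Dixon's criterion, where chance gives about 1 in 20, or 2.8. Alcam read 9.76 TPM in WT 1 and 14.1 to 14.9 TPM in the other WT mice. The log2 ratio of S100a11 to Anxa1 was -0.41 in WT 3 and 0.20 to 0.26 in the other WT mice.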

How the results depend on the processing

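The count of S100 and annexin genes called higher was 15 in deposited TPM, 8 under both forms of median-ratio scaling, 10 under quantile normalization and without the 20 most abundant genes, 14 with no filter or with a mean TPM of at least 5, and 13 to 15 with 1 mouse left out. The count called lower was 1, and 2 under the 4 scalings, which added Anxa11. Partner genes called higher numbered 20, with 6 under both median-ratio scalings, 5 under quantile normalization and without the 20 most abundant genes, and 16 to 19 with 1 mouse left out. Partner genes called lower numbered 0, with 1 under the 4 scalings and 0 to 1 with 1 mouse left out (1 without WT 1). The count that rose in both fits was 8, and 4 to 7 with 1 mouse left out. The causes of these changes were not tested.

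The difference of Anxa6 turned to -0.21 and -0.19 under the median-ratio scalings, -0.18 under quantile normalization and -0.17 without the 20 most abundant genes. That of Anxa7 turned to -0.013 under median-ratio scaling, and that of Anxa11 lay between -0.039 and 0.000111 with 1 mouse left out, the latter without WT 3. Over 287 alternative values of the 18 tested genes, 246 kept direction and call, 31 lost the call, 4 gained it and 6 turned direction. Each of these values is from a single fit, and the omissions among them are of deposited TPM. For calls in both forms, S100a1 and S100a4 each kept theirs in 1 of 8 omissions, Anxa1 in 2 and Anxa8 in 4. The ratio of S100a6 to Anxa11 lay between 1.21 and 1.34 with 1 mouse left out, where the exact permutation p of 0.0571 is the smallest that 3 against 4 mice allow.

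The deviations of same-numbered mice correlated at 0.22, -0.11, 0.17 and -0.01 across genes, and differently numbered mice were not compared. Whether the numbers pair the mice was therefore not decided. With the replicate block 4941 of all tested genes were higher in deposited TPM, against 4272 without it. With the replicate block 15 genes were higher and 1 lower, 21 partner genes were higher and 9 genes rose in both fits. The ratio of S100a6 to Anxa11 stayed at 1.27 under the block, with an exact p of 0.125, the smallest that 4 pairs allow.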

Other observations

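The gene 1810062G17Rik (Entrez 72282), which begins 49 bases beyond Anxa5 on chromosome 3, fell in both forms of the data. It read 8.90, 7.49, 8.49 and 9.18 TPM in WT and 1.47, 0, 0.537 and 0.652 TPM in hSKP2-KI, with no overlap. The difference was -2.58 (standard error 0.22, adjusted p = 0.000112, limma) in deposited TPM and -2.75 (standard error 0.23, adjusted p = 0.000198, limma) after scaling, while that of Anxa5 was 0.30 and 0.02. This gene was named after its values were seen.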
